A study of Mus musculus with 6 samples.

Results

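Rel, Jun, Dusp4, Sgk1 and Cish are signalling genes that appear in the table of tamoxifen-responsive transcripts deposited for an Abelson pro-B cell line. The 5 genes were selected from that table, which names 225 different genes, and each has 1 probe set among the 35557 measured. The table itself holds 251 probe sets with a p of at most 0.0451 and an absolute fold of at least 1.503 on these same arrays. The contrast between tamoxifen and untreated cells therefore chose the genes, and their differences are given as a description that supports no statement of its own. All cells were of a mouse pro-B line transformed by Abelson murine leukaemia virus, whose v-Abl kinase drives growth, and all carried retroviral Gfi1b joined to the oestrogen receptor domain. Gfi1b is a zinc finger repressor, and tamoxifen releases proteins joined to this domain from their inactive state. The comparison set 3 arrays of cells kept in tamoxifen for 12 h (PLUS OHT) against 3 of untreated cells (MINUS OHT). The labels call the untreated cells Wt although they carry the same fusion. Each array is called a culture below, numbered by its replicate. The submitters call the replicates biological without saying how the cultures were separated. Tamoxifen-treated cells without the fusion were not analysed here, so effects of the drug and of the fusion cannot be told apart. Whether the line is a single clone is not stated in the labels.

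The 5 genes belong to connected branches of signalling. Immediate early genes such as Jun are switched on within minutes of a stimulus without new protein synthesis, and their products go on to control later genes. NF-kB proteins such as c-Rel are held in the cytoplasm by inhibitors until a receptor signal frees them. Many pathways induce their own brakes: MAP kinase activity raises the phosphatases of the Dusp family, and cytokine signalling through STAT5 raises Cish. In Abelson-transformed B cell precursors, v-Abl is known to keep STAT5, Ras and PI3K signalling active without the usual cytokines.

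Promoter stretches from RefSeq (build GRCm38.p6) are shown for Cish, the gene that was higher with tamoxifen, and for Rel and Jun, which were lower. Each is printed 5′ to 3′ on the strand of the gene. In Cish, at chr9:107296539-107296688 on the plus strand, capitals mark the STAT5 letters TTCNNNGAA. In Rel, at chr11:23770970-23771219 on the minus strand, capitals mark TGACGTAA, which resembles a cyclic AMP response element, and GGGAAATCC, which resembles an NF-kB site. In Jun, at chr4:95052223-95052372 on the minus strand, capitals mark TGACATCA, which resembles an AP-1 site. These last 3 sets of letters were chosen after the sequences had been read.
Cish: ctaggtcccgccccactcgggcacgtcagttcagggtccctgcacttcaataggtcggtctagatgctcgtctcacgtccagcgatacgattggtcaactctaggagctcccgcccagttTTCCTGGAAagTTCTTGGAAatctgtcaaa
Rel: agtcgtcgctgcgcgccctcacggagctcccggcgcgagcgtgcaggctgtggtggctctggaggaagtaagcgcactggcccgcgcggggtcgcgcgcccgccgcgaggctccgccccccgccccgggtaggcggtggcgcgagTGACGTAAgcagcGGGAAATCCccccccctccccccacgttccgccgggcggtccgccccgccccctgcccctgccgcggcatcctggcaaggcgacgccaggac
Jun: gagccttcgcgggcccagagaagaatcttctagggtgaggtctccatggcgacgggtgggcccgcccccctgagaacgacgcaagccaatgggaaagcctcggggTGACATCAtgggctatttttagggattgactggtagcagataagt

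Motifs were searched on both strands of windows that run from 250 bases before to 50 after each annotated start, 32851 windows in all. No window was at hand for Dusp4, so its promoter was not searched. The Cish window held TTCNNNGAA at 2 places, beginning 1 and 12 bases into the annotated transcript. Of all windows, 8.30% held these letters at least once and 0.457% at 2 or more places. The core recognised by Gfi1 and Gfi1b, AAATC, stood in 35.9% of all windows, and in those of Cish and Rel and in 4 of the 6 for Sgk1. In Rel it lies inside GGGAAATCC, and in Cish it overlaps the second STAT5 match. The longer Gfi1 form AAATCAC, present in 3.20% of all windows, was in none of the windows for Rel, Jun, Sgk1 or Cish. The same was true of the AP-1 letters TGACTCA (5.20% of all windows), the cyclic AMP element TGACGTCA (1.79%), the NF-kB forms GGGACTTTC (0.353%) and GGAATTTCC (0.317%), and the FoxO letters GTAAACA (3.65%). The steroid receptor letters TGTTCT, found in 19.0% of all windows, was in 3 of the 6 Sgk1 windows. One Sgk1 window held TTCNNNGAA and one held the E-box CACGTG (7.15% of all windows). The letters chosen after reading were found in 0.499% of all windows for TGACGTAA, 0.304% for GGGAAATCC and 3.62% for TGACATCA. A match is a run of letters and does not show that a protein binds there.

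The transcription factor genes Rel and Jun were both lower with tamoxifen. Rel (accession NM_009044, probe set 10384725, chromosome 11 band A3.2) encodes c-Rel, the NF-kB subunit that supports proliferation and survival of lymphocytes. Its log2 expression was 9.65, 9.56 and 9.69 in tamoxifen cultures 1 to 3, against 10.27, 10.41 and 10.32 in untreated cultures 1 to 3. The groups were separated by a gap of 0.58, larger than the range of 0.13 within tamoxifen and of 0.14 within untreated cultures. Rel averaged 9.63 ± 0.069 with tamoxifen and 10.33 ± 0.069 without (SD, n = 3 each), a log2 difference of -0.70 with a standard error of 0.067. Standard errors of differences come from the limma fit described below, which draws each variance toward that of all probe sets.

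Jun (NM_010591, probe set 10514466, chromosome 4 bands C5-C7) encodes c-Jun, a partner in the AP-1 transcription factor. Its log2 expression was 9.50, 9.54 and 9.23 in tamoxifen cultures, against 10.19, 10.59 and 9.93 in untreated cultures. The groups did not overlap, but the gap of 0.39 was smaller than the range of 0.65 among the untreated cultures, where culture 2 was high and culture 3 low. Jun averaged 9.42 ± 0.17 with tamoxifen and 10.24 ± 0.33 without (SD, n = 3 each), and its log2 difference of -0.82 had the largest standard error of the 5 genes, 0.18.

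Dusp4 and Sgk1, which encode a phosphatase and a kinase, were lower as well. Dusp4 (NM_176933, probe set 10571312, chromosome 8 band A4) encodes a nuclear phosphatase that inactivates MAP kinases. Its log2 expression was 8.71, 8.72 and 8.77 in tamoxifen cultures, against 9.32, 9.60 and 9.38 in untreated cultures. The tamoxifen cultures spanned 0.06, and the untreated cultures 0.28 with culture 2 the highest. The means were 8.73 ± 0.033 with tamoxifen and 9.44 ± 0.15 without (SD, n = 3 each), a log2 difference of -0.70 ± 0.085 (SE).

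Sgk1 (NM_011361, probe set 10362073, chromosome 10 band A3) encodes a kinase related to Akt that acts downstream of PI3K, phosphorylates FoxO factors and is itself induced by serum and glucocorticoids. Its log2 expression was 7.76, 7.59 and 7.64 in tamoxifen cultures, against 8.31, 8.37 and 8.27 in untreated cultures. The gap of 0.51 exceeded the range within either group, which was 0.17 with tamoxifen and 0.10 without. Sgk1 averaged 7.66 ± 0.087 with tamoxifen and 8.32 ± 0.049 without (SD, n = 3 each), a log2 difference of -0.65 ± 0.068 (SE). The log2 differences of the 4 lower genes lay between -0.82 and -0.65, a spread no wider than the limma standard error for Jun.

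Cish ran the other way. The gene (NM_009895, probe set 10588577, chromosome 9 band F1) encodes CIS, an SH2 domain protein of the SOCS family that STAT5 induces and that dampens cytokine receptor signals. Its log2 expression was 10.17, 10.11 and 9.92 in tamoxifen cultures, against 9.05, 9.20 and 8.74 in untreated cultures. Every tamoxifen culture was above every untreated culture, with a gap of 0.73 against ranges of 0.25 with tamoxifen and 0.45 without. The means were 10.07 ± 0.13 with tamoxifen and 9.0 ± 0.23 without (SD, n = 3 each), a log2 difference of 1.07 ± 0.13 (SE).

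**Figure D1:**
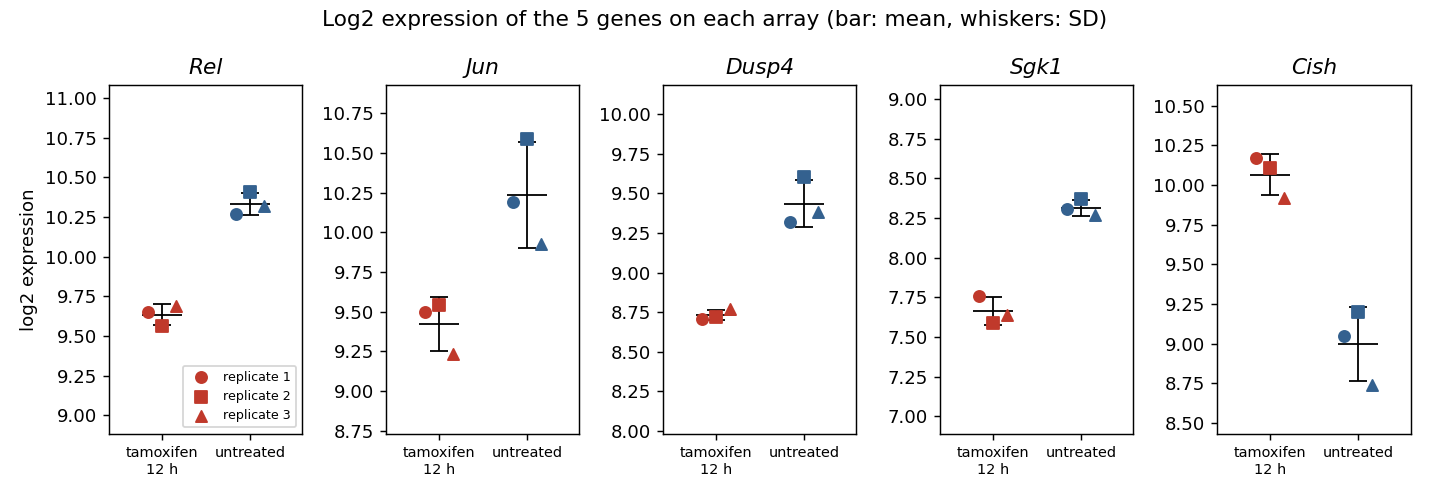
Log2 expression of Rel, Jun, Dusp4, Sgk1 and Cish on each of the 6 arrays, tamoxifen at the left and untreated at the right of each panel, with symbols for the replicate number, a bar for the mean and whiskers for the SD (n = 3 each); each axis spans the same number of log2 units. Cish is higher with tamoxifen, the other 4 genes are lower, and untreated replicate 2 is the highest untreated array in all 5 panels.

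Across all probe sets, limma with Benjamini-Hochberg adjustment over 35557 probe sets called 0.433% higher and 0.456% lower with tamoxifen at an adjusted p under 0.05. Of the 5 genes, 1 was called higher, Cish (adjusted p = 0.025). Another 3 were called lower, namely Rel (limma adjusted p = 0.014), Sgk1 (0.017) and Dusp4 (0.026), while Jun was not called (limma adjusted p = 0.12). Leaving out any 1 array other than untreated culture 2 ended all 4 calls. Because the authors' table was drawn from the same contrast, 72.5% of its 251 rows were called, and nothing is read from 4 of 5. Groups that do not overlap were likewise found for all 5 genes and for 18.3% of all probe sets. The median log2 difference of all probe sets was -0.009, with the central 90% from -0.24 to 0.34. The 5 genes, 4 lower and 1 higher, had a median of -0.70. The fold limit of the authors' table placed each of them outside that central range.

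The size of each difference placed Cish further out among rises than the other genes among falls. At least as large a rise was seen for 36 probe sets with Cish counted. At least as large a fall was seen for 79 with Jun counted, 119 for Dusp4, 120 for Rel and 143 for Sgk1. In the authors' deposited table the signed folds were 2.10 for Cish, -1.76 for Jun, -1.63 for Rel, -1.63 for Dusp4 and -1.57 for Sgk1, where a minus sign marks a fall. Sgk1 thus lay nearest to the smallest fold in that table, 1.503. By the p-value of the authors' deposited table, Rel ranked 41st of 251 (p = 0.000221) and Jun 230th (p = 0.0187), with Jun nearest to the largest p there, 0.0451. Probe sets outside the table carry no gene name here, so no gene just beyond these limits can be given.

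**Figure D2:**
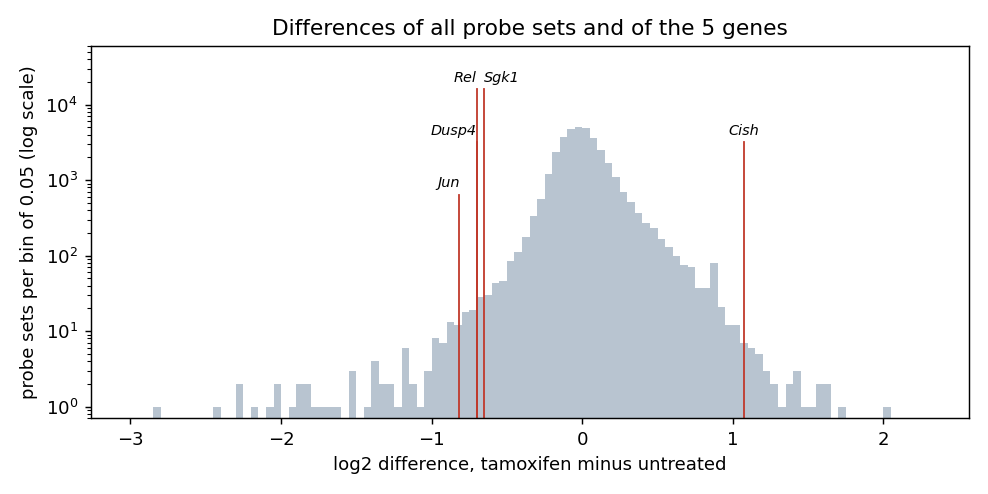
Histogram of the log2 difference, tamoxifen minus untreated, for all 35557 probe sets (horizontal axis, bins of 0.05; vertical axis, number of probe sets on a log scale), with a red line at each of the 5 genes. Jun (-0.82), Rel (-0.70), Dusp4 (-0.70) and Sgk1 (-0.65) stand in the left tail, and Cish (1.07) in the right tail.

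The size of the arrays' deviations from their group mean enters the p-value behind the authors' table, so small deviations helped to choose the genes, and their pattern across arrays is given as a description. Jun and Cish, which lay on opposite sides of the contrast, deviated alike: their deviations correlated at 0.95 over the 6 arrays (Pearson), the highest of the 10 pairs among the 5 genes. In the tamoxifen cultures Jun deviated by 0.076, 0.118 and -0.194, and in the untreated cultures by -0.046, 0.350 and -0.304. Cish deviated by 0.102, 0.041 and -0.143 with tamoxifen, and by 0.053, 0.200 and -0.252 without. Culture 3 was the lowest of its group for both genes, with and without tamoxifen. Untreated culture 3 was below the untreated mean for all 5 genes, for 68.5% of the rows lower and 71.6% of the rows higher in the authors' table, and for 51.0% of all probe sets. Rel and Dusp4 were the next most alike, at 0.78, with both highest in tamoxifen culture 3 and in untreated culture 2. Jun with Rel (0.20) and Cish with Rel (0.11) were least alike.

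These correlations describe 6 arrays, with each gene centred on its 2 group means, and the pair was singled out after its value was seen. Among the other rows of the authors' table, 4.80% deviated like Jun and 3.60% like Cish with a correlation of at least 0.95, and among all other probe sets 0.757% and 0.782% did so. The leading component of the deviations of all probe sets, which holds 48.2% of their variance, was highest in untreated culture 2 (0.666) and lowest in tamoxifen culture 2 (-0.465). The arrays numbered 2 also stood apart in the full values, whose leading component held 46% of the variance. It placed tamoxifen cultures 1 and 3 at 26.64 and 23.43 and tamoxifen culture 2 at -2.67. Untreated cultures 1 and 3 were at -30.6 and -26.54, and untreated culture 2 was at 9.74. The order of the tamoxifen and untreated arrays of number 2 was thus the reverse of that of numbers 1 and 3. The genes correlated with the leading component of the deviations at 0.93 for Rel, 0.83 for Dusp4, 0.75 for Sgk1, 0.50 for Jun and 0.44 for Cish. The part of this component in the deviations of the 5 genes was not tested further.

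Untreated culture 2 had the highest untreated value of all 5 genes. The same held for 74.5% of the rows lower in the authors' table, 63.7% of the rows higher in it and 41.2% of all probe sets. Set side by side by replicate number, the tamoxifen minus untreated difference of Rel was -0.62, -0.85 and -0.63 for numbers 1, 2 and 3. For Jun it was -0.69, -1.05 and -0.70, for Dusp4 -0.61, -0.88 and -0.61, and for Sgk1 -0.55, -0.78 and -0.63. For Cish it was 1.12, 0.91 and 1.18. Number 2 thus gave the most negative of the 3 differences for the 4 lower genes and the smallest rise for Cish. The labels do not say that cultures of the same number were handled together.

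**Figure D3:**
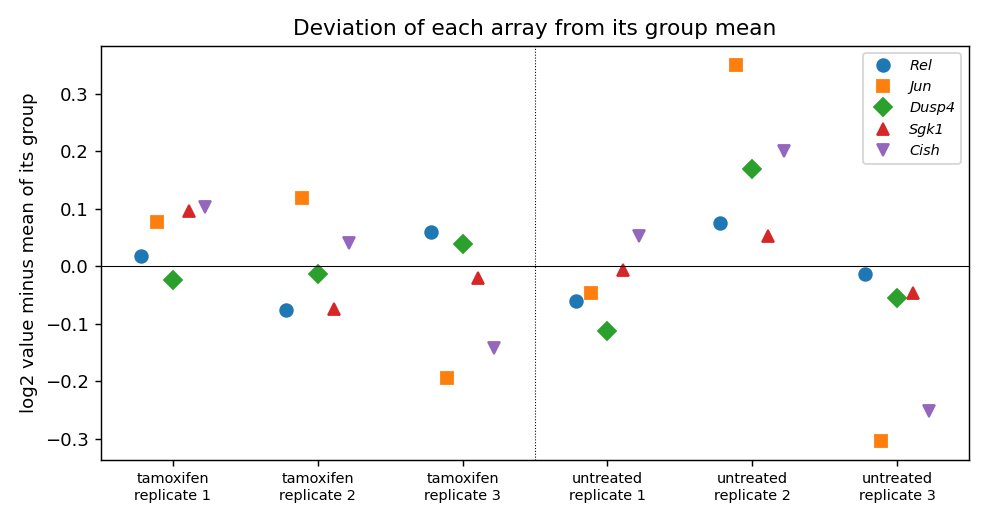
Deviation of each array from the mean of its group (vertical axis, log2 units) for the 5 genes, with tamoxifen arrays left of the dotted line and untreated arrays right of it. All 5 genes lie above 0 in untreated replicate 2, and Jun and Cish lie lowest in replicate 3 of both groups.

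Leaving out 1 array at a time kept each gene's direction. It could not do otherwise, since the groups did not overlap for any of the 5 genes. The log2 difference lay between -0.73 and -0.66 for Rel, -0.97 and -0.64 for Jun, -0.76 and -0.62 for Dusp4, -0.70 and -0.62 for Sgk1, and 0.95 and 1.17 for Cish. The calls were less stable than the sizes. Without untreated culture 2, Rel, Dusp4, Sgk1 and Cish were all called (limma adjusted p of 0.030 to 0.032), whereas the 5 fits that ended the calls had between 9 and 24 probe sets called higher and between 28 and 41 lower among all 35557, against 154 and 162 with all arrays. With the replicate number as a block none of the 5 genes was called, with limma adjusted p between 0.098 for Cish and 0.175 for Dusp4. In that fit 6 probe sets were called higher and 16 lower among all 35557. The block lowered the standard error for Jun (from 0.1753 to 0.107) and Cish (from 0.1296 to 0.0928) and raised it for Rel, Dusp4 and Sgk1. Without both arrays of number 2, Rel and Dusp4 were called, while Sgk1 and Cish had limma adjusted p of 0.0558 and 0.0575. Without the probe sets numbered below those of the authors' table, Jun was called too (limma adjusted p = 0.045).

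**Figure D4:**
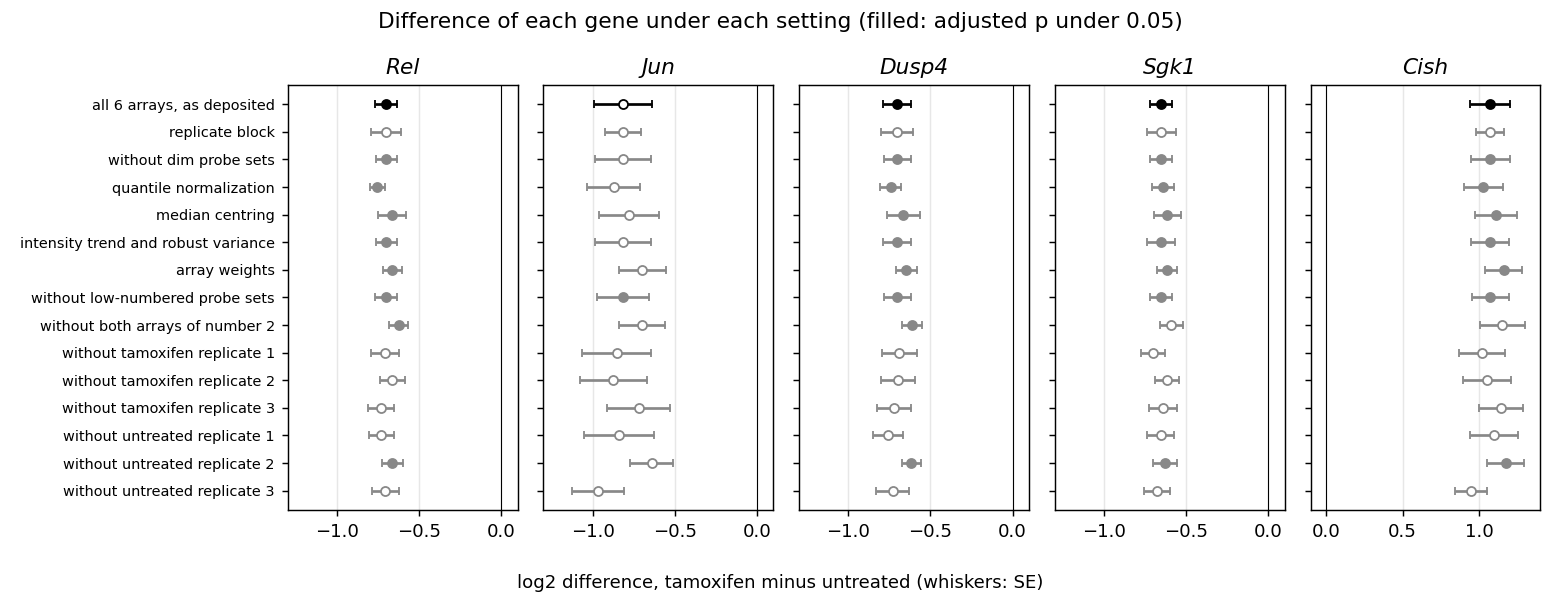
Log2 difference, tamoxifen minus untreated (horizontal axis, whiskers show the SE), for the 5 genes under each of 15 settings (vertical axis), filled where the limma adjusted p was under 0.05. The differences stay on one side of 0 throughout, and outside the Jun panel the open symbols belong to the block and to fits that leave out arrays.

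Few relatives of the 5 genes could be read, since names are at hand for the table's rows alone. The 7 pathway lists held 115 further genes, and the table named 2 of them, Ptpn6 and Xbp1, both called higher. Of all 251 rows of the table, 72.5% were called in either direction, so nothing is read from these calls. Among 20 genes of cytokine feedback and STAT5 signalling, Ptpn6 stood beside Cish. Ptpn6 encodes SHP-1, a phosphatase that switches off antigen receptor and cytokine receptor signals in blood cells. Its log2 expression was 12.57, 12.51 and 12.45 in tamoxifen cultures, against 11.85, 11.77 and 11.85 in untreated cultures, a difference of 0.69 ± 0.060 (SE; limma adjusted p = 0.011). All tamoxifen cultures were above all untreated ones, and unlike Cish, Ptpn6 was lowest in untreated culture 2.

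The list of 13 steroid hormone genes did not separate the hormones and included the oestrogen receptor gene Esr1. From this list, Xbp1, a factor of the secretory pathway, stood beside Sgk1 and ran opposite to it. It averaged 12.52 ± 0.038 with tamoxifen and 11.90 ± 0.11 without (SD, n = 3 each), a log2 difference of 0.61 ± 0.073 (SE; limma adjusted p = 0.025). Jun was the 1 gene present of 24 immediate early genes, Rel of 15 NF-kB subunits and regulators, Dusp4 of 19 genes of MAP kinase feedback and Sgk1 of 17 genes of the PI3K and Sgk branch. Of 18 NF-kB target genes the table held 0. A gene missing from a table of selected rows may have kept its level or may lie outside the table for another reason. The heading of immediate early, NF-kB and cytokine feedback genes therefore rests on 1 or 2 genes for each pathway.

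The genes of the table most like each of the 5 were found by Pearson correlation of the 6 log2 values, over 185 other named genes. Because every row was selected for a step between the groups, correlations near 1 follow from the selection, and no function is read from them. Rel was most like Rgs18, a regulator of G protein signalling (0.999; log2 difference -1.89), and Mtap, an enzyme of methionine salvage (0.998; -0.65). Jun was most like Erc1 (0.995; -0.63) and Fggy (0.982; -0.67), the lowest correlations of the set. Dusp4 was nearest to the immunoglobulin segment Ighv1-72 (0.999; -1.02) and to Csf1, the macrophage growth factor (0.999; -1.15). Sgk1 was nearest to Lpar6, a lysophospholipid receptor (0.999; -1.37), and to the B cell kinase Blk (0.998; -0.81). Cish was nearest to Cyth4, an exchange factor for ARF GTPases (0.999; 0.94), and to the protease inhibitor Cst7 (0.996; 0.82).

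Array medians lay between 7.52 and 7.61, and each of the 5 probe sets averaged above the arrays' lower quartiles of 6.29 to 6.35 in both groups. Of 14 markers of early B cells the table named 4, on 5 rows, of which 3 were called lower and 1 higher. Those lower were Rag1 (log2 difference -2.28, limma adjusted p = 0.00082), Rag2 (-1.83, adjusted p = 0.0031) and Blk (-0.81, adjusted p = 0.0096), and Cd79b was higher (0.65, adjusted p = 0.021). A second, dimmer row for Rag2 was at -0.72 and was not called (limma adjusted p = 0.060). Markers of other cells present in the table were 2 of 10 for T and NK cells, 2 of 10 for myeloid cells, 1 of 8 for stroma and 0 of 9 for erythroid cells and megakaryocytes. The table holds 251 of the 35557 probe sets, and 72.5% of its rows were called in either direction, so nothing is read from these counts. The myeloid lysozymes Lyz1 and Lyz2 were called higher, with log2 differences of 0.64 and 1.26 (limma adjusted p = 0.0081 and 0.011). The T cell factor Tcf7 was called higher, at 0.85, and the filament gene Vim, which blood cells also express, was called lower, at -0.88 (limma adjusted p = 0.0060 and 0.0062). Zap70, the other T and NK marker in the table, was at 0.63 and was not called (limma adjusted p = 0.078). The part of these shifts in the differences of the 5 genes was not tested, and in RNA from whole cultures fewer cells of a type and less RNA per cell cannot be told apart.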

How the data were processed

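The 6 one-colour arrays were grouped by their titles, with 3 tamoxifen (12 h) and 3 untreated arrays. The title of an array in each group carries a letter A, which the titles do not explain. The deposited matrix holds log2 expression per probe set; the base was settled from the data, since log2 differences of the 5 genes matched the authors' deposited folds within 0.0043. The submitters' processing notes name Partek. For background correction, normalization and array design, no description is given in the sources. The authors' deposited table gives for each row a p-value and a linear fold with a minus sign for falls, treated here as a score. The authors' test is not stated.

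Differences were fitted with limma 3.58.1 (lmFit, eBayes) in R 4.3.3 over all 35557 probe sets, without covariates, with Benjamini-Hochberg adjustment at 0.05. The procedure was tested on simulated data with noise drawn independently for each probe set. The real deviations shared a leading component, so false calls from such shared variation were not checked. Degrees of freedom were 4 residual and 2.49 prior. Precision is limited by having 6 arrays. The submitters call the replicates biological without saying how cultures were separated, so p-values reflect only how these arrays vary, which may be technical. Symbols were updated by accession through RefSeq. Motifs and figures used Python 3.11.15 and matplotlib 3.10.9.

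The genes and lists were chosen with earlier results of these data known. The genes named were the 5, every pathway list member in the authors' table, and for each of the 5 the 2 table genes with the most similar values, with predicted genes passed over. Cell type markers named beside them came from marker lists. The alternatives were the replicate block, leaving out arrays, dim or low-numbered probe sets, array weights, median centring, quantile normalization, and an intensity trend with robust variance.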

Additional observations from a re-analysis of the deposited data

How the results depend on the processing

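The differences of Rel, Jun, Dusp4, Sgk1 and Cish kept their sign under all 14 alternatives, which shows little for genes chosen by this contrast. Of 70 such values, 69 lay within 1 SD of the value given, the SD being each gene's own within groups. The other was Rel without both arrays of number 2, at -0.62. That SD was 0.262 for Jun, whose differences ran from -0.97 to -0.64, and 0.069 for Rel. The cause of the moves in the counts below was not tested. Of the 5 genes, 1 called higher and 3 called lower became 0 and 0 with the replicate block, and 0 were called higher without both arrays of number 2. With 1 array left out they ranged from 0 to 1 and from 0 to 3. All probe sets called, 154 higher and 162 lower, were 6 and 16 with the replicate block, and 410 and 311 with the intensity trend and robust variance. They were 814 and 376 with array weights, 332 and 308 without low-numbered probe sets, and 247 and 85 without both arrays of number 2. Leaving out dim probe sets gave 270 higher, quantile normalization 309 lower and median centring 104 lower. Fits with 1 array left out called 9 to 278 higher and 28 to 136 lower. Deviations of same-numbered arrays correlated at -0.229, -0.45 and -0.096 over all probe sets, so the numbers were not taken as pairs. The files used here hold no measure of background.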
